A study of Mus musculus with 9 samples.

Results

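Type 1 conventional dendritic cells (cDC1) from peri-pancreatic lymph nodes were compared between 2 stages of pancreatic disease, tumor and PanIN. Chosen by the stage given in the labels, 3 Tumor libraries and 3 PanIN libraries entered the comparison, which is 6 of the 9 libraries of the series. The remaining 3 libraries came from healthy mice. They entered the filter on low counts, the scaling and the estimate of the spread, but not the difference itself. PanIN, pancreatic intraepithelial neoplasia, is the precursor lesion of pancreatic ductal cancer, and the series title places the mice in the KPC model, in which pancreatic cancer arises spontaneously. Genotype, strain, age, sorting gates and pooling of animals are not stated by the sources used here, so whether libraries came from separate animals is unknown and every p-value measures only the spread between these libraries. One title code was shared by Tumor 1, PanIN 1 and a healthy library, and every other library carried a code of its own. The numbers of libraries only name them.

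cDC1 take up material from dying cells, carry it to the draining node and present it on MHC class I to CD8 T cells. On the way they mature: they switch on the chemokine receptor CCR7, costimulatory molecules and cytokines such as IL-12. Type I interferon acts on cDC1 through a receptor whose signal reaches a short promoter motif in a shared set of antiviral genes. Dendritic cells also change their metabolism as they mature, and the balance of glycolysis, mitochondrial respiration and lipid synthesis is known to bear on their function.

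Libraries held 41430103, 46041617 and 36465371 estimated counts in Tumor and 35424553, 36894434 and 43144289 in PanIN. Levels are CPM, counts scaled to library size with TMM factors, and differences are log2 fold changes of Tumor over PanIN. The cDC1 receptor gene Xcr1 was seen in every library, at 249, 620 and 384 CPM in Tumor and 356, 459 and 710 CPM in PanIN, with overlapping groups. None of the 28 cDC1 identity genes tested had an unadjusted p under 0.05. Markers of other cells were unevenly spread. The summed level of 10 epithelial markers, Spint2 among them, was 565, 293 and 313 CPM in Tumor and 306, 210 and 183 CPM in PanIN, and Krt19 stood at 22 CPM in Tumor 1 and under 1 CPM in the other 5 libraries. The 11 neutrophil markers summed to 18.1, 3.8 and 8.27 CPM in Tumor and 5.72, 51.2 and 36.1 CPM in PanIN, with 4 of them at 0 in Tumor 2, 2 in PanIN 1 and 1 in Tumor 1. The 17 B cell markers summed to 1465, 767 and 436 CPM in Tumor and 552, 1293 and 482 CPM in PanIN. Plasma cell markers, 12 in number, summed to 1770, 711 and 222 CPM in Tumor and 473, 507 and 358 CPM in PanIN. For 7 erythroid and platelet markers the sums were 241, 33.4 and 42.4 CPM in Tumor and 48.6, 37.3 and 42.2 CPM in PanIN. Tumor 1 was the highest library for both of these lists. In RNA from bulk cells, fewer cells of a type and less RNA per cell cannot be told apart.

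Few single genes separated the stages after correction. Of 24133 genes tested with edgeR's quasi-likelihood test and Benjamini-Hochberg adjustment, 1 was called higher in Tumor (0.00414% of the genes) and 2 were called lower (0.00829%). With the 6 libraries of the 2 stages alone edgeR called no gene, while 1320 genes were higher and 966 genes lower in Tumor before adjustment at the same threshold of 0.05, and DESeq2 over all 9 libraries called 11 genes higher and 19 genes lower in Tumor. At an unadjusted p under 0.05, 487 genes were higher in Tumor (2.02%) and 608 were lower (2.52%). In 2011 genes (8.33%) all 3 Tumor libraries lay above all 3 PanIN libraries, and in 1753 genes (7.26%) all 3 lay below. On TPM, which the authors scaled to transcript length and library size, these counts were 570 above and 4110 below. The median log2 difference over all genes was -0.155 on log2(TPM + 1), against -0.05 on CPM. The 2 scales thus do not share a zero point, and these counts are not a correction for length. With 3 libraries against 3, an exact permutation test of a single gene cannot go below p = 0.1. Counts were also simulated with the spread of all 9 libraries, whose common coefficient of variation was 56.5%, against 40.8% over the 6 libraries. Changed genes were drawn from those above a minimum level, so the scarcest genes are not covered. All of them were changed in the same simulated data, and recovery of a gene changed alone was not tested. The same edgeR fit found 13.4% of the genes changed 2-fold, 62.7% at 4-fold and 90.9% at 8-fold, and called 4 unchanged genes. A gene that was not called may therefore still differ.

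The 3 called genes all share most of their sequence with other genes, and how reads were divided between copies was not tested. Ugt1a9, a UDP-glucuronosyltransferase that conjugates lipophilic compounds (chr1:88070800-88218997, GRCm38), stood at 14.2, 18 and 5.34 CPM in Tumor and at 0 in every PanIN library. It rose at least 512-fold, counting the PanIN group at a floor of 3 counts (edgeR adjusted p = 0.0282). Ugt1a genes share their last exons, and 67.8% of the 31-base words of Ugt1a9 also occur in other genes. Summed over the 9 genes of the Ugt1a locus, the level was 51.2, 57.1 and 47.6 CPM in Tumor and 48.5, 40 and 53.4 CPM in PanIN, with a log2 fold change of 0.14 (SE 0.25) and overlapping groups. Once the edgeR fit held a title-code term, Ugt1a9 was no longer called (adjusted p = 0.105).

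Pgam1-ps2, a processed pseudogene of the glycolytic enzyme Pgam1 (chr7:27469771-27470535), stood at 0 in every Tumor library and at 4.94, 15 and 19.7 CPM in PanIN. It fell at least 529-fold over the groups (edgeR adjusted p = 0.00684), and 100% of its 31-base words occur elsewhere. The sum of Pgam1 and its pseudogenes was 207, 241 and 169 CPM in Tumor and 171, 161 and 206 CPM in PanIN, with a log2 fold change of 0.20 (SE 0.27), the opposite sign. Zfp781, a zinc finger gene (chr10:81901911-81930480), was at 0 in Tumor and at 1.3, 1.34 and 0.974 CPM in PanIN. It fell at least 46-fold (edgeR adjusted p = 0.0282), and 97.7% of its words are shared, mostly with the predicted gene Gm3055. Summed with Gm3055, it had a log2 fold change of -0.64 (SE 0.47). The title-code term ended the call of Zfp781 (edgeR adjusted p = 0.105) and kept that of Pgam1-ps2 (adjusted p = 0.000761). For all 3 genes, the call was absent from the sum over genes that share their sequence.

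Srcap and Rpl10 showed the same arrangement without being called. Srcap, an ATPase of a chromatin remodelling complex, stood at 29.7, 23.4 and 39.3 CPM in Tumor and 67.6, 99.3 and 111 CPM in PanIN, with no overlap (log2 fold change -1.59, SE 0.26, edgeR adjusted p = 0.167). Gm42715, a predicted gene that overlaps it in sequence, stood at 83.6, 88.1 and 85.9 CPM in Tumor and 65.1, 77.2 and 55.4 CPM in PanIN, above PanIN in every Tumor library. Srcap and Gm42715 together gave a log2 fold change of -0.44 (SE 0.20). Rpl10, a protein of the large ribosomal subunit, stood at 147, 122 and 330 CPM in Tumor and 266, 406 and 452 CPM in PanIN, so Tumor 3 lay within the PanIN range. Its copy Rpl10-ps3 stood at 1490, 1600 and 1130 CPM in Tumor and 1070, 750 and 789 CPM in PanIN. Rpl10 alone had a log2 fold change of -0.91 (SE 0.38), and Rpl10 summed with its copies had 0.50 (SE 0.32).

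**Figure D1:**
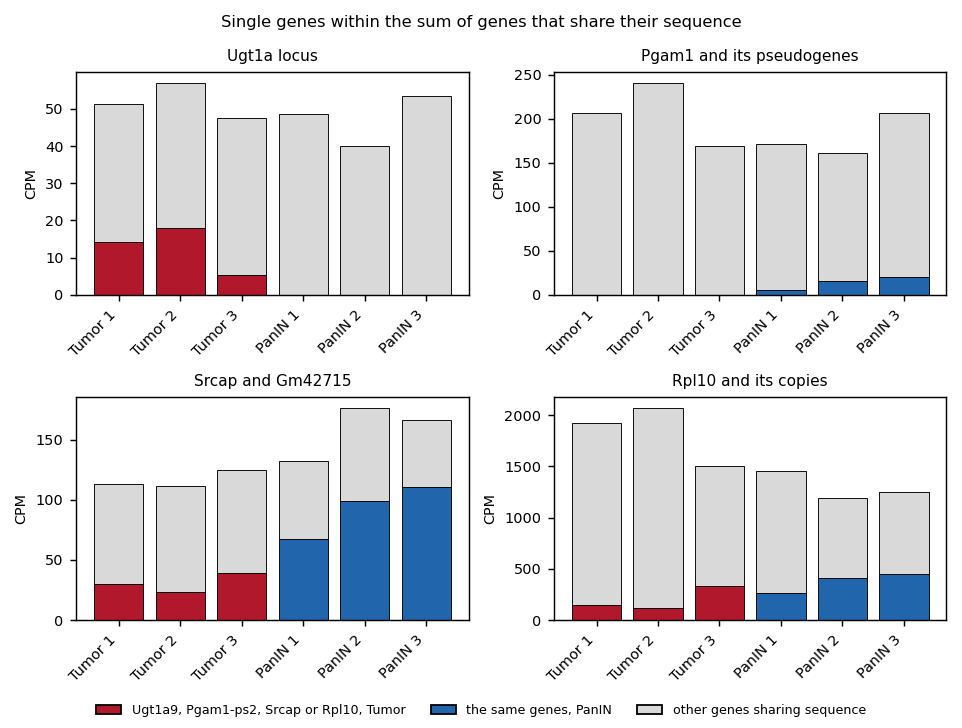
Each bar is 1 library and its height is the summed level, in CPM, of the genes that share sequence. The coloured part is Ugt1a9, Pgam1-ps2, Srcap or Rpl10 (red in Tumor, blue in PanIN) and the grey part is all other genes of the sum. Ugt1a9 has a coloured part in the 3 Tumor libraries alone and Pgam1-ps2 in the 3 PanIN libraries alone, while the full bars of those 2 panels overlap between stages.

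All other genes named here had an adjusted p above 0.05, and for nearly all of them it was 1 after rounding. The exceptions were Cpne8 at 0.167, Gp2 at 0.19, Ifi203 at 0.667 and Ifitm2 at 0.788. Their differences are therefore given as levels and as log2 fold changes of edgeR's quasi-likelihood fit with their SE, and gene lists are described by counts and medians beside those of all genes. Of all 24133 genes, 8.33% had all Tumor libraries above all PanIN libraries and 7.26% had all below. At an unadjusted p under 0.05, 2.02% were higher and 2.52% lower. Every list count of these kinds is to be read beside these shares. Over all 24133 genes the median log2 fold change was -0.05, and 45.8% of genes had a positive one. On log2(TPM + 1) and log2(TPM + 0.1) that median stood at -0.155 and -0.341, so list medians on those scales are given relative to it.

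Genes of mitochondrial respiration were higher in Tumor libraries as a group. Complex I, which passes electrons from NADH to ubiquinone, had 36 of 37 nuclear genes higher on average and a median log2 fold change of 0.47. All Tumor libraries lay above all PanIN libraries for 21 of its genes, against 8.33% of all genes tested. At an unadjusted p under 0.05, 11 of its genes were higher, against 2.02% of all genes. The exception in sign was Ndufs1, the largest subunit of the complex and chosen for mention after its values were seen, at 46.7, 50.4 and 62.5 CPM in Tumor and 53.6, 61.7 and 58.7 CPM in PanIN. For complexes III and IV, which hand electrons on to oxygen, all 21 nuclear genes were positive, with a median of 0.56. For ATP synthase all 15 were positive, with a median of 0.53 and 13 genes without overlap. No gene of these 3 lists was lower at an unadjusted p under 0.05.

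The single subunits given here were picked for the smallest p of their lists, and their log2 fold changes lie above the list medians. Ndufv2, a subunit of the NADH-oxidising module, stood at 161, 149 and 117 CPM in Tumor and 107, 84.5 and 78.7 CPM in PanIN (log2 fold change 0.66, SE 0.23). Tumor 3 was the lowest Tumor library and PanIN 1 the highest PanIN library, and the groups did not overlap. Cox5b, a structural subunit of complex IV, stood at 142, 139 and 103 CPM in Tumor and 90, 73.3 and 85.6 CPM in PanIN (log2 fold change 0.63, SE 0.23). Atp5g1, which encodes the membrane ring of ATP synthase, stood at 66.9, 66 and 39.3 CPM in Tumor and 39.2, 27.3 and 32.3 CPM in PanIN, so Tumor 3 and PanIN 1 nearly met. Cycs, cytochrome c, the mobile carrier between complexes III and IV, stood at 52, 74.2 and 50.1 CPM in Tumor and 35.1, 30.5 and 40.3 CPM in PanIN (log2 fold change 0.74, SE 0.27).

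All 13 protein genes of the mitochondrial genome were higher on average in Tumor, with a median log2 fold change of 0.66, and 6 of them did not overlap. mt-Nd6, the complex I gene on the light strand, stood at 843, 949 and 602 CPM in Tumor and 499, 506 and 363 CPM in PanIN (log2 fold change 0.81, SE 0.26). mt-Nd1 stood at 2729, 2853 and 1790 CPM in Tumor and 1540, 1752 and 1094 CPM in PanIN, where Tumor 3 was close to PanIN 2. mt-Nd3 stood at 145, 158 and 133 CPM in Tumor and 77.8, 81.7 and 79.2 CPM in PanIN (log2 fold change 0.87). Since 98.1% of its words are shared with a nuclear copy, Gm28438, their sum is also given, with a log2 fold change of 0.83 (SE 0.25). PanIN 3 stood lowest for this list, with a summed level of 19666 CPM, against 29585 and 33969 CPM in the other 2 PanIN libraries and 45266, 46470 and 34001 CPM in Tumor.

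Ribosomal protein genes showed medians of a similar size. Of 49 large-subunit genes 48 were positive, with a median log2 fold change of 0.48, 20 genes without overlap and Rpl10 as the exception. Of the 49, unadjusted p-values under 0.05 were found for 2 higher genes and 1 lower gene, against 2.02% and 2.52% of all genes. Of 33 small-subunit genes 32 were positive, with a median of 0.47, 13 without overlap, and 2 higher and none lower at that threshold, and Rps12, named after its values were seen, had -0.03 (0.17 without PanIN 3). Rps27l, a p53-responsive paralog of Rps27, stood at 146, 117 and 103 CPM in Tumor and 74.3, 45.6 and 66.1 CPM in PanIN (log2 fold change 0.98, SE 0.25). Rps6, whose protein is phosphorylated downstream of mTORC1, stood at 727, 780 and 604 CPM in Tumor and 547, 428 and 460 CPM in PanIN, without overlap (log2 fold change 0.56, SE 0.27). Rpl3 overlapped between stages, at 1349, 1614 and 1289 CPM in Tumor and 1226, 1298 and 1192 CPM in PanIN. Rps6 and Rpl3 share 55.9% and 61.1% of their words with other genes. Summed over all cytosolic ribosomal protein genes, the share of counts was 7.09%, 6.83% and 5.5% in Tumor and 5.81%, 4.92% and 5.1% in PanIN, and Tumor 3 lay below PanIN 1.

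The mitochondrial ribosome, which translates the mitochondrial genome, had 77 of 78 genes positive, with a median of 0.36. In 31 all Tumor libraries lay above PanIN, against 8.33% of all genes. Higher at an unadjusted p under 0.05 were 11, against 2.02% of all genes. Mrps25, a small-subunit protein, stood at 63.5, 54.3 and 45.9 CPM in Tumor and 38.8, 34 and 32.7 CPM in PanIN (log2 fold change 0.63, SE 0.22). The exception in sign was Mrps31, named after its values were seen, at -0.17. For ribosome biogenesis, 20 of 54 genes for nucleolar processing were positive, the median was -0.13, and no gene had an unadjusted p under 0.05. That median was -0.03 without Tumor 1, -0.04 without PanIN 3 and -0.27 without Tumor 2. Translation initiation and elongation factors had 32 of 40 genes positive and a median of 0.21, or 0.10 without Tumor 2. Relative to all genes that median was 0.02 on log2(TPM + 1) and 0.21 on log2(TPM + 0.1). Eif2s2, a subunit of the factor that brings initiator tRNA to the ribosome, stood at 246, 235 and 167 CPM in Tumor and 163, 122 and 134 CPM in PanIN.

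**Figure D2:**
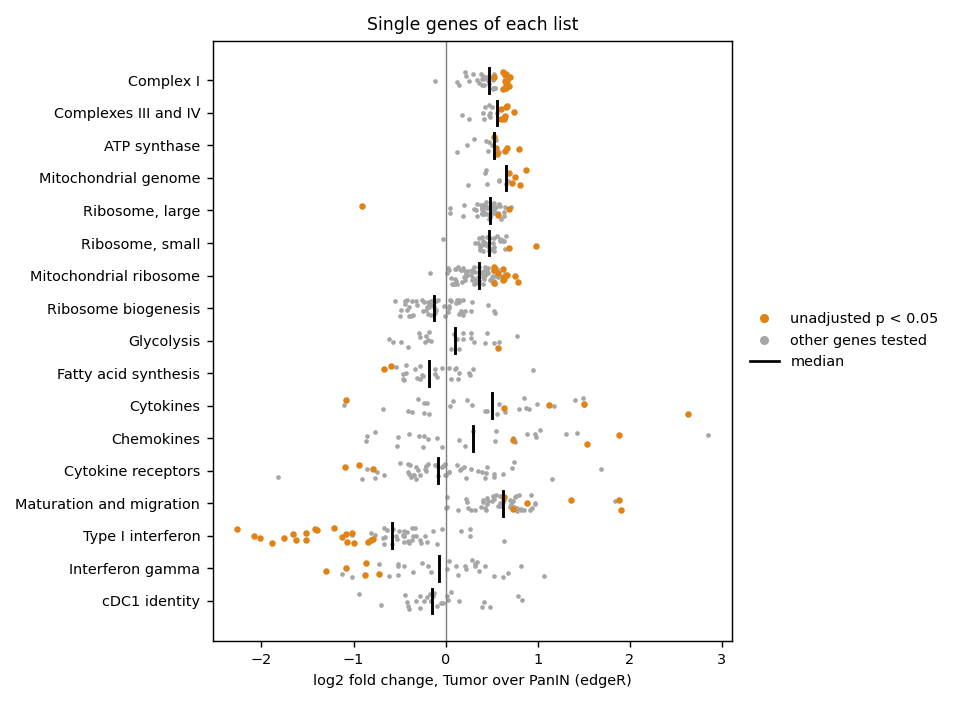
Each point is 1 gene, placed by its log2 fold change of Tumor over PanIN, with genes grouped by list. Orange points had an unadjusted p under 0.05 and black bars mark list medians. Points of the respiratory and ribosomal lists sit almost wholly right of 0, with medians of 0.36 to 0.66, and type I interferon genes sit mostly left of it, with a median of -0.58.

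The respiratory and ribosomal differences moved with transcript length. Among protein-coding genes the median log2 fold change was 0.51 for mean transcript lengths up to 500 bases, 0.41 from 500 to 1000, -0.02 from 2000 to 3000 and -0.30 over 8000. The share of genes with all Tumor libraries above all PanIN libraries was 30% from 500 to 1000 bases and 0.898% over 8000 bases. For genes of 500 to 1000 bases the median deviation from each gene's mean over the 6 libraries was 0.29, 0.27 and -0.03 in Tumor and -0.09, -0.28 and -0.15 in PanIN, so Tumor 1 and Tumor 2 stood highest and PanIN 2 lowest. Over 8000 bases it was -0.08, -0.17 and -0.14 in Tumor and 0.19, 0.13 and -0.001 in PanIN, where PanIN 1 stood highest and Tumor 2 lowest.

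Set beside genes of the same length, the lists differed less. All 1331 protein-coding genes of 1000 bases or under had a median log2 fold change of 0.42, and in 29.3% of them the Tumor libraries lay above the PanIN libraries. The 31 complex I genes of that length had 0.51 and 61.3%, the 15 genes of complexes III and IV had 0.60 and 60%, and the 11 ATP synthase genes had 0.55 and 90.9%. The 43 large-subunit genes had 0.48 and 41.9%, and the 30 small-subunit genes had 0.48 and 43.3%. Over 1000 bases, the 44 mitochondrial ribosome genes had a median of 0.23, with 31.8% above, against -0.07 and 7.85% for all 14949 protein-coding genes of that length. With an offset for length added to the fit, the medians were 0.25 for complex I, 0.33 for complexes III and IV, 0.29 for ATP synthase, 0.41 for the mitochondrial genome, 0.23 for each ribosomal subunit and 0.22 for the mitochondrial ribosome. With the offset, complex I had 0 genes higher at an unadjusted p under 0.05, against 11 without it. Complexes III and IV had 1 against 9, ATP synthase 0 against 6 and the mitochondrial genome 0 against 5. The large subunit had 0 against 2, the small subunit 1 against 2 and the mitochondrial ribosome 1 against 11. Over all genes there were 233 against 487. The part of length in these differences was not tested beyond these values. For 2 longer transcripts the value was larger with the offset than without it: Cycs, of 3078 bases, had 0.82, and Mrps25, of 5014 bases, had 0.82. On log2(TPM + 1), by contrast, Mrps25 had -0.07, a turn in sign, where the median over all genes was -0.155.

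**Figure D3:**
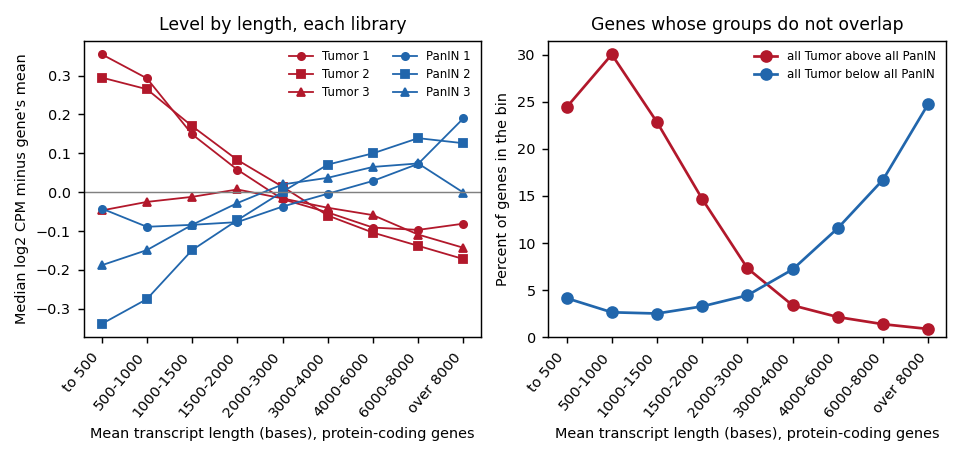
The left panel gives, for protein-coding genes in bins of mean transcript length in bases, each library's median log2 CPM minus the gene's mean over 6 libraries. The right panel gives the percent of genes in each bin whose Tumor libraries all lay above (red) or all below (blue) the PanIN libraries. Short genes were highest in Tumor 1 and Tumor 2 and lowest in PanIN 2, the red line falls to 0.898% over 8000 bases and the blue line reaches 24.8% there.

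The respiratory and ribosomal lists kept their sign in each way of computing the fold changes apart from 1 value: relative to all genes, the medians on log2(TPM + 1) were 0.31 for complex I, 0.38 for complexes III and IV, 0.38 for ATP synthase, 0.41 for the mitochondrial genome, 0.30 and 0.34 for the large and small ribosomal subunits and 0.16 for the mitochondrial ribosome, whose median itself was -0.003 on log2(TPM + 0.1). Leaving out single libraries gave medians of 0.36 to 0.62 for complex I and 0.37 to 0.60 for the large subunit. Within the title code shared by Tumor 1 and PanIN 1, the complex I median was 0.44, and over the other 4 libraries it was 0.48. The corresponding medians for the large subunit were 0.47 and 0.45.

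Other metabolic lists had medians nearer to that of all genes. In several of them the share of genes wholly above PanIN still exceeded the 8.33% of all genes. Glycolysis had 15 of 26 genes positive, 3 genes wholly above, 2 wholly below and a median of 0.11, which was 0.02 without Tumor 2. Relative to all genes the glycolysis median was -0.14 on log2(TPM + 1) and 0.05 on log2(TPM + 0.1). Gapdh, the glycolytic dehydrogenase, stood at 816, 619 and 518 CPM in Tumor and 475, 397 and 444 CPM in PanIN (log2 fold change 0.57, SE 0.25), while Hk2, the inducible hexokinase, stood at 20.1, 44.3 and 39 CPM in Tumor and 31.5, 53.1 and 74.7 CPM in PanIN. Slc2a1, the main glucose transporter, and Ldha, which makes lactate, differed by -0.28 (SE 0.31) and 0.15 (SE 0.36) on the log2 scale, and Hif1a, the hypoxia regulator of both, had -0.19 (SE 0.24). Mpc1, a subunit of the carrier that brings pyruvate into mitochondria, stood at 72.3, 65.5 and 49.7 CPM in Tumor and 41.7, 35.1 and 37.1 CPM in PanIN, with no overlap (log2 fold change 0.72, SE 0.23). The list of the tricarboxylic acid cycle and pyruvate entry, to which Mpc1 belongs, had a median of 0.07, or -0.01 without Tumor 2. Relative to all genes that median was -0.07 on log2(TPM + 1) and 0.07 on log2(TPM + 0.1). Of the 32 genes in this list 9 lay wholly above PanIN and 2 wholly below, against 8.33% and 7.26% of all genes. Over 1000 bases, 23.3% of its 30 genes lay wholly above, against 7.85% of all protein-coding genes of that length.

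Lipid genes pointed in different directions. Fatty acid synthesis and storage had 10 of 28 genes positive and a median of -0.19, which was 0.02 within the shared title code. Wholly above PanIN lay 3 of its genes and wholly below lay 5, against 8.33% and 7.26% of all genes. Fasn, fatty acid synthase, stood at 85, 110 and 98.1 CPM in Tumor and 123, 151 and 168 CPM in PanIN, with every Tumor library lower (log2 fold change -0.59, SE 0.25). Fads1, a desaturase of long-chain fatty acids, stood at 24.1, 30.2 and 20.8 CPM in Tumor and 32.5, 38.1 and 48.5 CPM in PanIN (log2 fold change -0.67, SE 0.29). Both are long transcripts, and with the length offset their log2 fold changes were -0.36 and -0.56. Fabp5, a fatty acid binding protein, stood at 121, 67.8 and 70.5 CPM in Tumor and 59.5, 53.9 and 20.6 CPM in PanIN, higher in every Tumor library. Fatty acid oxidation had 20 of 28 genes positive and a median of 0.19. Relative to all genes it was 0.07 on log2(TPM + 1) and 0.23 on log2(TPM + 0.1). Of these 28 genes, 7 lay wholly above PanIN and none wholly below. Cholesterol synthesis and efflux had 23 of 34 positive and a median of 0.19, which was -0.03 within the title code. Relative to all genes it was -0.03 on log2(TPM + 1) and 0.10 on log2(TPM + 0.1). Of these 34 genes, 7 lay wholly above PanIN and 1 wholly below. Hmgcs1, an early enzyme of the pathway, had 0.12 (SE 0.25), and Abca1, the exporter, -0.43 (SE 0.58).

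Amino acid, nucleotide and nutrient-sensing genes showed no common direction. Amino acid transporters and the enzymes of tryptophan and arginine had a median of 0.11. Relative to all genes it was -0.07 on log2(TPM + 1) and -0.02 on log2(TPM + 0.1). Of these 30 genes, 7 lay wholly above PanIN and 2 wholly below, against 8.33% and 7.26% of all genes. Arg1, arginase, was seen at 9.1 CPM in Tumor 1 and at 0.428 and 0.306 CPM in the other Tumor libraries, against 0.783, 0.723 and 0.974 CPM in PanIN. The pentose phosphate, nucleotide and one-carbon list had a median of 0.02 and the mTORC1 list 0.01. Relative to all genes they had -0.22 and -0.14 on log2(TPM + 1), and -0.10 and 0.03 on log2(TPM + 0.1). Wholly above PanIN lay 1 of 35 and 5 of 36 genes, and wholly below lay 2 of each list. Myc, a transcription factor that drives ribosome and metabolic genes, stood at 18.7, 27.7 and 23 CPM in Tumor and 23.2, 36.1 and 47.9 CPM in PanIN (log2 fold change -0.63, SE 0.36).

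**Figure D4:**
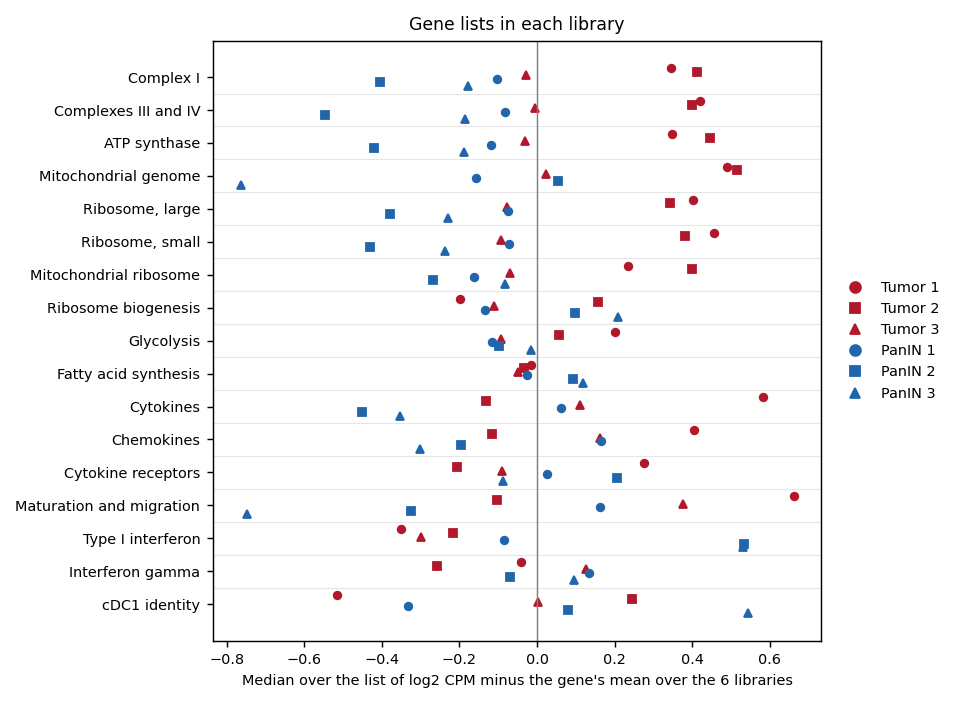
Each symbol is 1 library and gives the median over a list of log2 CPM minus the gene's mean over the 6 libraries (red, Tumor; blue, PanIN). For complex I the Tumor libraries sit at 0.34, 0.41 and -0.03 and the PanIN libraries at -0.10, -0.41 and -0.18. For type I interferon they sit at -0.35, -0.22 and -0.30 in Tumor and at -0.09, 0.53 and 0.53 in PanIN.

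Cytokine genes were mostly higher in Tumor, with large differences in a few. Of 32 tested, 22 were positive with a median log2 fold change of 0.51. At an unadjusted p under 0.05 there were 4 higher and 1 lower, against 2.02% and 2.52% of all genes. Relative to all genes the median was 0.15 on log2(TPM + 1) and 0.33 on log2(TPM + 0.1), and on CPM it was 0.15 without Tumor 1. Il1b, the inflammatory cytokine interleukin 1 beta, stood at 69.5, 64 and 51.4 CPM in Tumor and 33.5, 23.4 and 28.2 CPM in PanIN (log2 fold change 1.12, SE 0.29). The groups were well apart, and the value was 1.04 within the title code and 1.14 over the other 4 libraries. Il1rn, the antagonist of the IL-1 receptor, stood at 8.71, 2.99 and 4.03 CPM in Tumor and 2.78, 1.26 and 1.52 CPM in PanIN. Ebi3, the subunit shared by IL-27 and IL-35, stood at 100, 64.7 and 74.9 CPM in Tumor and 62, 54.7 and 38.7 CPM in PanIN (log2 fold change 0.63, SE 0.28).

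IL-12, by which cDC1 drive T cell responses, was not called. Il12b, the p40 subunit of IL-12, stood at 136, 71.6 and 129 CPM in Tumor and 87.4, 51.7 and 48.4 CPM in PanIN, where Tumor 2 lay below PanIN 1 (log2 fold change 0.85, SE 0.64). Il12a, its partner p35, did not reach the count filter. Il15, which sustains CD8 T cells, had a log2 fold change of 0.45 (SE 0.41), Tgfb1 0.05 (SE 0.33) and Il6 1.18 (SE 0.77), the last with 3.47 CPM in Tumor 1 and at most 1.19 CPM elsewhere. Il10 stood at or under 0.6 CPM in each of the 6 libraries. Spp1, osteopontin, stood at 131, 14.7 and 12.5 CPM in Tumor and 7.67, 6.69 and 11.1 CPM in PanIN, so its log2 fold change of 2.63 rested on Tumor 1 and was 0.62 over the 4 libraries with other title codes. Tumor 1 was also the library with Krt19, and the part of other cells in this value was not tested.

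Chemokine genes had 17 of 29 positive, a median of 0.30 and 3 higher at an unadjusted p under 0.05, against 2.02% of all genes. The median was 0.06 within the title code and 0.06 over the other 4 libraries, 0.13 without Tumor 1, 0.54 without Tumor 2 and 0.69 without PanIN 1. Ccl17, a ligand of CCR4 on regulatory and helper T cells, stood at 103, 25.9 and 54.4 CPM in Tumor and 19.8, 17.7 and 12.4 CPM in PanIN (log2 fold change 1.88, SE 0.47). Ccl22, the other CCR4 ligand, was far more abundant, at 1683, 990 and 1435 CPM in Tumor and 859, 948 and 290 CPM in PanIN, with no overlap but with PanIN 2 close to Tumor 2 (log2 fold change 0.97, SE 0.69). Cxcl16, the ligand of CXCR6 on activated CD8 T cells, stood at 914, 561 and 576 CPM in Tumor and 529, 395 and 316 CPM in PanIN (log2 fold change 0.73, SE 0.33). The ligands of CXCR3, which cDC1 use to attract effector T cells, did not follow: Cxcl9 had -0.19 (SE 0.39) and Cxcl10 -0.52 (SE 0.50). Ccl5, which draws T cells, stood at 2546, 1034 and 1208 CPM in Tumor and 1911, 602 and 378 CPM in PanIN, and the shared title code held the highest library of each stage. The summed T and NK cell markers were likewise highest in Tumor 1 and PanIN 1, at 944, 350 and 210 CPM in Tumor and 607, 373 and 153 CPM in PanIN, and their part in Ccl5 was not tested.

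Receptors for cytokines and chemokines showed no common direction. Among 54 genes 3 were lower and none higher at an unadjusted p under 0.05, where 2.52% of all genes were lower. Wholly above PanIN lay 1 gene and wholly below lay 5, against 8.33% and 7.26% of all genes. Positive were 21 of the 54, or 35 within the title code, with a median of -0.08 that was 0.14 within the title code, 0.01 without Tumor 2, 0.01 without Tumor 3 and 0.05 without PanIN 2. Ccr2, the receptor that draws monocytes and dendritic cell precursors to inflamed tissue, stood at 42.7, 107 and 45.9 CPM in Tumor and 90.8, 174 and 150 CPM in PanIN, with Tumor 2 inside the PanIN range (log2 fold change -1.09, SE 0.40). Il6ra, the IL-6 receptor, stood at 43.5, 54.4 and 57.4 CPM in Tumor and 58.6, 109 and 102 CPM in PanIN, and Lifr, the receptor of leukemia inhibitory factor, at 8.6, 5.77 and 8.04 CPM in Tumor and 10, 13.5 and 19.5 CPM in PanIN. Every Tumor library lay below every PanIN library for Il6ra (log2 fold change -0.79, SE 0.36) and Lifr (log2 fold change -0.94, SE 0.41).

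Maturation genes were higher on average in Tumor, but the libraries of the stages overlapped. Each of the 53 tested had a positive log2 fold change, and the median was 0.62. In 13 all Tumor libraries lay above PanIN, against 8.33% of all genes. An unadjusted p under 0.05 was found for 6, against 2.02% of all genes on the higher side. Per library, the median deviation over the list was 0.66, -0.10 and 0.38 in Tumor and 0.16, -0.33 and -0.75 in PanIN, so Tumor 2 lay below PanIN 1. The cDC1 identity genes stood at -0.52, 0.25 and 0.003 in Tumor and -0.33, 0.08 and 0.54 in PanIN on that measure, lowest in Tumor 1 and highest in PanIN 3, and their part in the maturation values was not tested. Relative to all genes the maturation median was 0.46 on log2(TPM + 1), and on CPM it was 0.42 without Tumor 1, 0.43 without PanIN 3 and 0.93 without PanIN 1. Ccr7, the receptor that guides mature dendritic cells to the node, stood at 2602, 1097 and 1584 CPM in Tumor and 1518, 970 and 666 CPM in PanIN (log2 fold change 0.74, SE 0.75). Fscn1, an actin bundler of mature dendritic cells, stood at 6798, 3548 and 4482 CPM in Tumor and 3965, 3104 and 1335 CPM in PanIN (log2 fold change 0.82, SE 0.77). Tumor 1 was the highest and PanIN 3 the lowest for each, and Tumor 2 lay below PanIN 1. Cd83, a marker of mature dendritic cells chosen after its values were seen, stood at 593, 329 and 465 CPM in Tumor and 313, 273 and 251 CPM in PanIN (log2 fold change 0.73, SE 0.33). Cd40, the receptor of T cell help, stood at 263, 180 and 235 CPM in Tumor and 176, 162 and 102 CPM in PanIN, without overlap (log2 fold change 0.62, SE 0.31).

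Regulatory and checkpoint genes had no common direction: 20 of 38 tested were positive, the median was 0.03, and only 1 gene, a higher one, had an unadjusted p under 0.05. Within the title code that median was 0.28 and over the other 4 libraries -0.06. Cd274, which encodes PD-L1, stood at 230, 104 and 151 CPM in Tumor and 105, 76.2 and 93.5 CPM in PanIN, with Tumor 2 just below PanIN 1 (log2 fold change 0.82, SE 0.39). Tnfsf9, the 4-1BB ligand, stood at 16.8, 9.72 and 17.1 CPM in Tumor and 9.15, 7.12 and 7.47 CPM in PanIN (log2 fold change 0.88, SE 0.37), and Cd86 had a log2 fold change of 0.32 (SE 0.34). Stat4, the transducer of IL-12 signals, stood at 150, 80.5 and 101 CPM in Tumor and 50.3, 52.6 and 26.2 CPM in PanIN (log2 fold change 1.36, SE 0.58), although 31% of its words are shared with other genes. NF-kB and TNF response genes had 30 of 36 positive and a median of 0.24, or 0.14 without Tumor 3 and 0.41 without Tumor 2. Relative to all genes that median was 0.03 on log2(TPM + 1) and 0.20 on log2(TPM + 0.1). Nfkbib, an inhibitor of NF-kB, stood at 163, 126 and 115 CPM in Tumor and 90.5, 77.9 and 65.3 CPM in PanIN (log2 fold change 0.79, SE 0.27). The survival genes of the Bcl2a1 cluster, whose copies share 79.6% to 89.1% of their words, were read as a sum, which had a log2 fold change of 0.97 (SE 0.31) and stood at 1287, 935 and 973 CPM in Tumor and 734, 546 and 352 CPM in PanIN.

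**Figure D5:**
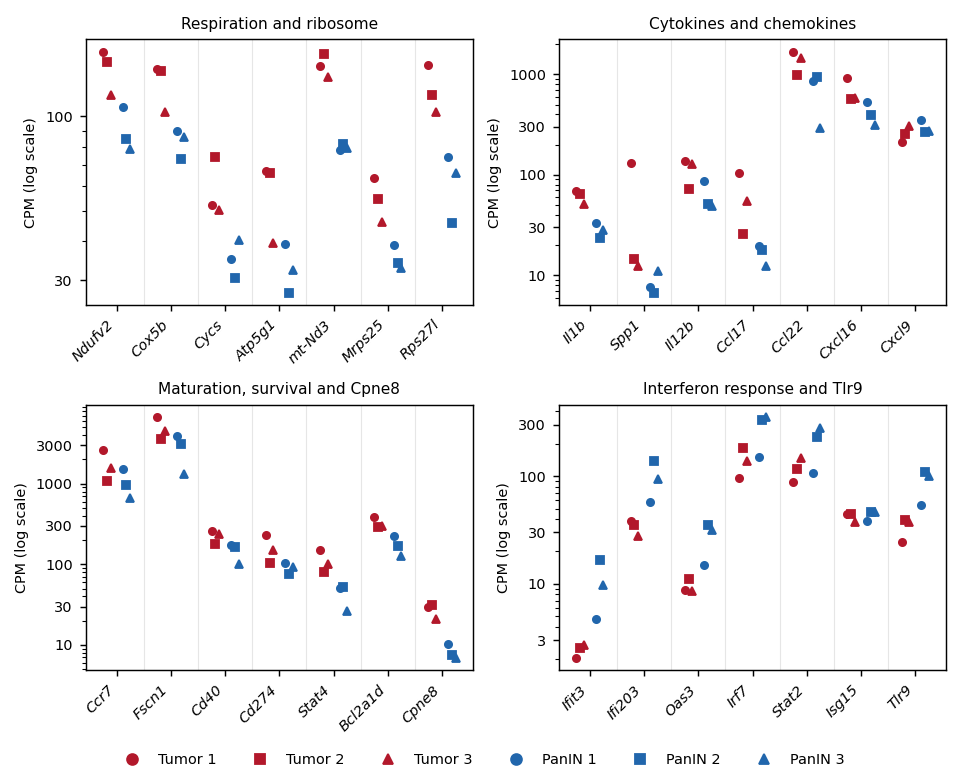
Levels in CPM on log axes of 28 genes in 4 panels, with Tumor libraries in red to the left and PanIN libraries in blue to the right of each gene. Il1b, Ccl17 and Cpne8 lie higher in every Tumor library, Spp1 is high in Tumor 1 alone, Ifit3, Ifi203 and Oas3 lie lower in every Tumor library, and Isg15 overlaps.

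Type I interferon response genes were lower in Tumor than in PanIN. Of 57 tested, 53 had a negative log2 fold change, and the median was -0.58. In 22 every Tumor library lay below every PanIN library, against 7.26% of all genes. On the lower side 20 had an unadjusted p under 0.05, against 2.52% of all genes. The median was negative in each of these ways of computing it: between -0.50 and -0.71 when single libraries were left out, -0.52 with the length offset and, relative to all genes, -0.69 on log2(TPM + 1) and -0.67 on log2(TPM + 0.1). The stages differed less within the shared title code, with a median of -0.31, than over the other 4 libraries, with -0.70, and the difference between these 2 values was not tested. Neutrophil markers also had a negative median, of -1.75. For B cell markers the median was -1.16, which was 0.06 without PanIN 2, and their sums given above overlapped between stages. The median of the plasmacytoid dendritic cell markers was -0.20, but it was 0.06 without PanIN 2, 0.10 without Tumor 3 and 0.05 over the 4 libraries with other title codes. The part of these cells in the interferon values was not tested. Within the title code, where the interferon median was -0.31, the neutrophil and B cell medians were 0.92 and 0.34.

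Promoters of the list were read to show what its members share. The letters GAAANNGAAA, the core of the interferon-stimulated response element, and its reverse complement TTTCNNTTTC were searched in the 250 bases before each start (RefSeq, GRCm38.p6). The motif was present in 18 of the 43 list genes with a promoter, which is 41.9%, against 3.46% of all 27025 promoter symbols. Those 18 genes had a median log2 fold change of -0.80. The 25 list genes with a promoter but without the motif were lower too, with a median of -0.45. Windows of 6 list genes with the motif are shown, since the first 5 genes were lower on average in Tumor and Isg15 was within 0.04 of no difference. Capitals mark the motif on either strand, and matches may overlap.
Ifit3, chr19:34583367-34583456, plus strand: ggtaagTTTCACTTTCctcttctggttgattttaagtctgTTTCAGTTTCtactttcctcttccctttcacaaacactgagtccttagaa
Oas3, chr5:120777685-120777774, minus strand: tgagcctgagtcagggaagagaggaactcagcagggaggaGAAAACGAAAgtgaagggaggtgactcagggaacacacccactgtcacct
Ifi203, chr1:173942493-173942582, minus strand: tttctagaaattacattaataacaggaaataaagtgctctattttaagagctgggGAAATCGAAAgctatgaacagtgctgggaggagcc
Ifi213, chr1:173599296-173599385, minus strand: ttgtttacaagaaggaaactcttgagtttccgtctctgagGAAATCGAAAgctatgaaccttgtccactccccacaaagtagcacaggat
Stat2, chr10:128270248-128270337, plus strand: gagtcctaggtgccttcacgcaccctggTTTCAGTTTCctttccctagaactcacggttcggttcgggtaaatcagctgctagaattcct
Isg15, chr4:156200835-156200924, minus strand: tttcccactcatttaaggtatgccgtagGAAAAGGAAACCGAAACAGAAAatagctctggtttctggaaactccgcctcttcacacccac

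Ifi203 and Ifi213, members of the PYHIN family of DNA-binding proteins on the same chromosome, share a run of 20 bases that contains the motif. Ifi203 stood at 38.7, 35.1 and 27.7 CPM in Tumor and 57.7, 139 and 94 CPM in PanIN (log2 fold change -1.52, SE 0.29, adjusted p = 0.667 by edgeR), and Ifi213 at 6.31, 7.48 and 3.51 CPM in Tumor and 9.37, 27.8 and 21.2 CPM in PanIN. For each of them PanIN 1 was the PanIN library nearest to Tumor. Ifit3, with 2 matches in its window, encodes a partner of IFIT1 in binding viral RNA and stood at 2.06, 2.57 and 2.75 CPM in Tumor and 4.75, 16.7 and 9.78 CPM in PanIN. It shares 61.8% of its words with Ifit3b, and the sum had a log2 fold change of -1.98 (SE 0.48). Oas3, an oligoadenylate synthetase that activates RNase L, stood at 8.84, 11.2 and 8.65 CPM in Tumor and 14.9, 35.5 and 31.9 CPM in PanIN. Isg15, a ubiquitin-like modifier with 3 overlapping matches, stood at 44.6, 44.4 and 37.8 CPM in Tumor and 38.2, 46.1 and 46.5 CPM in PanIN, a log2 fold change of -0.04 (SE 0.25).

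Irf7 and Stat2, transcription factors of the interferon pathway, were lower on average too. Irf7, the amplifier of interferon production, stood at 96.7, 182 and 137 CPM in Tumor and 149, 328 and 355 CPM in PanIN, with Tumor 2 above PanIN 1. Stat2 stood at 87.5, 117 and 146 CPM in Tumor and 106, 231 and 277 CPM in PanIN (log2 fold change -0.81, SE 0.35). Among effectors, Ifit2 stood at 8.13, 19.1 and 10.3 CPM in Tumor and 20.5, 64.2 and 67.8 CPM in PanIN, and Ifi44 at 3.28, 13.9 and 5.65 CPM in Tumor and 16.2, 38.1 and 29.8 CPM in PanIN, without overlap for either. Ddx58, the cytosolic RNA sensor RIG-I, stood at 8.03, 6.49 and 4.51 CPM in Tumor and 10.4, 19.7 and 11.8 CPM in PanIN (log2 fold change -1.13, SE 0.36).

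Not every interferon-induced gene was lower. Ifi27, Ifi35, Bst2 and Epsti1 were the 4 with a positive log2 fold change, named here because so few were, and none had an unadjusted p under 0.05. On log2(TPM + 1) Ifi27, Ifi35 and Bst2 had -0.23, -0.07 and -0.21, where the median over all genes was -0.155. Ifitm2, a membrane protein that blocks virus entry and lies outside the list, stood at 99.5, 93.5 and 58.9 CPM in Tumor and 27, 33.5 and 45.1 CPM in PanIN (log2 fold change 1.26, SE 0.26, adjusted p = 0.788 by edgeR). In all, 55.5% of its words occur in other genes, 12 in number, and summed with the 3 that share the most it had 1.24 (SE 0.26). Its neighbour Ifitm3 differed the other way on average, at 71.2, 67.1 and 45.9 CPM in Tumor and 53.9, 86.3 and 126 CPM in PanIN. Ifitm2 and Ifitm3 were chosen after their values were seen.

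The interferon gamma list was divided, with 17 of 34 genes positive and a median of -0.07 that was 0.05 without Tumor 2. At an unadjusted p under 0.05, 5 were lower and none higher, against 2.52% and 2.02% of all genes. Its 11 genes with the GAAANNGAAA motif had a median of -0.52, and its 11 genes with a promoter but without the motif had 0.32. Irgm1, a GTPase against intracellular pathogens, stood at 42.4, 67.9 and 71 CPM in Tumor and 77.1, 104 and 152 CPM in PanIN, without overlap (log2 fold change -0.88, SE 0.36). Over all tested genes with a promoter, the 493 with the motif had a median of -0.10 and the 13609 without it -0.04. The motif is a description of these windows and says nothing of binding.

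Antigen presentation genes differed by list. Cross-presentation and dead-cell uptake had 12 of 31 genes positive, a median of -0.09, which was 0.05 within the title code and -0.17 over the other 4 libraries, and 2 genes, both higher, with an unadjusted p under 0.05. MHC class I and peptide loading had 20 of 24 positive and a median of 0.33. Psme2, a proteasome activator subunit, stood at 1137, 768 and 896 CPM in Tumor and 755, 482 and 446 CPM in PanIN (log2 fold change 0.74, SE 0.30), with 66.2% of its words shared with copies. H2-T24, a nonclassical class I gene, differed the other way, at 4.61, 5.39 and 4.87 CPM in Tumor and 8.29, 20.8 and 14.5 CPM in PanIN (log2 fold change -1.55, SE 0.39). MHC class II and processing had a median of 0.19, which was 0.02 with the length offset and 0.03 without Tumor 2. Relative to all genes that list had 0.10 on log2(TPM + 1) and 0.285 on log2(TPM + 0.1). Its 4 genes at an unadjusted p under 0.05 were all higher, among them the lysosomal proteases Ctsz, at 987, 704 and 779 CPM in Tumor and 605, 502 and 419 CPM in PanIN, and Ctsh, at 578, 462 and 471 CPM in Tumor and 407, 332 and 274 CPM in PanIN.

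Innate receptors included Tlr9, the sensor of unmethylated DNA, at 24.7, 39.4 and 37.7 CPM in Tumor and 54.3, 110 and 100 CPM in PanIN (log2 fold change -1.38, SE 0.36). All Tumor libraries were lower, within the title code by a log2 fold change of -1.12 and over the other 4 libraries by -1.43. Tlr3, the double-stranded RNA sensor typical of cDC1, overlapped, at 97.9, 260 and 192 CPM in Tumor and 164, 263 and 626 CPM in PanIN. Over the list of 32 receptors and sensors the median was -0.20, which was 0.10 within the title code, -0.08 without PanIN 2 and -0.04 without PanIN 3. Egr3, an immediate early transcription factor, stood at 14.8, 18.4 and 14.4 CPM in Tumor and 25.7, 30.5 and 60.5 CPM in PanIN (log2 fold change -1.30, SE 0.35).

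Digestive enzyme transcripts of pancreatic acinar cells were at trace level and split by gene. Of 14 acinar genes that passed the filter, 5 were lower and 2 higher at an unadjusted p under 0.05, and transcripts this scarce pass the filter through the libraries where they are highest. Ctrb1, a chymotrypsinogen, stood at 0.235, 0.143 and 0.223 CPM in Tumor and 6.21, 3.67 and 1.11 CPM in PanIN, and Cel, a lipase, at 0 in each Tumor library and 0.675, 0.903 and 1.11 CPM in PanIN. Gp2, a zymogen granule glycoprotein that intestinal M cells also make, differed the other way, at 6.36, 4.82 and 4.9 CPM in Tumor and 1.13, 0.697 and 0.543 CPM in PanIN (chr7:119442537-119459285, log2 fold change 2.76, SE 0.46, adjusted p = 0.19 by edgeR). The summed level of all 14 was 15.1, 11.2 and 17 CPM in Tumor and 21.5, 16.6 and 11.2 CPM in PanIN.

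Among protein-coding genes with a mean of at least 4 CPM, an unadjusted p under 0.05 and no overlap, 281 were higher and 196 lower in Tumor. Ugt1a9, Spp1, Ccl17, Ifitm1, Cpne8, Gpr160, Nectin2, Ramp3, Trabd2b and Stat4 had the largest positive log2 fold changes. Cpne8, a calcium-dependent membrane-binding protein (chr15:90487482-90679432), was the most even of them, at 29.4, 31.6 and 21 CPM in Tumor and 10.4, 7.46 and 6.88 CPM in PanIN (log2 fold change 1.73, SE 0.27, edgeR adjusted p = 0.167). Nectin2, a ligand of the checkpoint receptor TIGIT, stood at 13.8, 4.11 and 5.12 CPM in Tumor and 1.19, 2.58 and 3.69 CPM in PanIN. The largest negative ones were Naalad2, Cyp8b1, Oas2, Ifit3, Ifit2, Dhrs9, Ifi44, Ifi213, Srcap and H2-T24, 5 of them members of the type I interferon list. Naalad2 and Cyp8b1 were highest in PanIN 3 alone, at 22.3 and 36.3 CPM, against at most 4.1 and 4.9 CPM in the other 5 libraries.

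Levels in the Healthy libraries are given for the leading genes, with no test made here. Ugt1a9 was at 0 in all 3 Healthy libraries, while Pgam1-ps2 stood at 13.7, 30.4 and 21.4 CPM and Zfp781 at 3.11, 3.94 and 3.4 CPM there, so for these 3 genes the Tumor libraries stood apart from both other groups. Srcap at 82.9, 84.2 and 75.9 CPM and Cpne8 at 11.7, 11.7 and 11.2 CPM in Healthy also lay nearer to PanIN than to Tumor. Il1b stood at 28.4, 14.7 and 13.7 CPM and Ccl17 at 10.1, 5.96 and 16.3 CPM in Healthy, lower than in every Tumor library. Ifi203 at 36.9, 36 and 30.8 CPM in Healthy lay within the range of Tumor, and Oas3 at 7.59, 5.38 and 5.72 CPM lay below all Tumor libraries. For these interferon genes the PanIN libraries were the highest of the 3 groups.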

How the data were processed

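RNA of cDC1 from 3 Tumor, 3 PanIN and 3 Healthy libraries was quantified per transcript by the authors. The submitters' processing notes name Salmon and mm10. The deposited values carry the name sailfish instead, so which quantifier made them is not settled. The deposited values are estimated counts, used here, and TPM, which the authors scaled to transcript length and library size. Of 136288 transcript rows, 136176 matched GENCODE transcript identifiers and were summed to 53458 genes, and the sums were rounded to whole numbers. edgeR 4.0.16 in R 4.3.3 (filterByExpr, TMM scaling, quasi-likelihood fit over all 9 libraries) tested Tumor against PanIN at a Benjamini-Hochberg adjusted p under 0.05. limma 3.58.1 and DESeq2 1.42.0 gave alternatives, and the fit was tested on simulated data. Members and gene lists were chosen with earlier results of these data known. Named genes were those called, the 10 largest changes in each direction (protein-coding, mean of at least 4 CPM, unadjusted p under 0.05, no overlap), up to 4 members per list with the smallest p and a fixed list; others are marked as chosen after their values were seen. Shared sequence is the percent of a gene's 31-base words found in transcripts of other genes. A fold against a group at 0 used a floor of 3 counts over the group, which covers counting error only.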

Additional observations from a re-analysis of the deposited data

How the results depend on the processing

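No paired analysis was possible because the labels carry no replicate numbers and the stages share only 1 title code, which pairs 1 library of each. A fit with a term for that code is given in place of a replicate block. The fit as reported called 1 gene higher and 2 lower. Calls higher in Tumor numbered 11 by DESeq2, 14 without a filter, 2 by limma-voom, 2 with the length offset and 0 with at least 50 counts in 3 libraries, with the 6 libraries alone, with a title-code term, on log2(TPM + 1) and among protein-coding genes alone. Calls lower numbered 19 by DESeq2, 19 without a filter, 1 with the stricter filter, 1 with the title-code term, 1 by limma-voom, and 0 with the 6 libraries and among protein-coding genes. Leaving out single libraries gave 0 to 3 higher (0 without Tumor 1, Tumor 2, PanIN 2 or PanIN 3, and 3 without Tumor 3) and 1 to 4 lower (4 without Tumor 3 or PanIN 1, and 1 without Tumor 1, Tumor 2, PanIN 2, PanIN 3, Healthy 1 or Healthy 3).

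At an unadjusted p under 0.05, 487 genes were higher, against 847 without a filter, 1320 with the 6 libraries, 2239 by limma-voom, 191 on log2(TPM + 1), 175 on log2(TPM + 0.1) and 233 with the length offset. Lower were 608, against 966 with the 6 libraries, 2043 by limma-voom, 1805 on log2(TPM + 1) and 1908 on log2(TPM + 0.1). Without single libraries these counts ran from 156 (without Tumor 1) to 1207 (without Healthy 2) and from 341 (without PanIN 2) to 1106 (without Healthy 2). Genes with every Tumor library above PanIN numbered 570 on TPM, and those below numbered 4110 on TPM and 1152 among protein-coding genes. Summed with genes that share their sequence, Pgam1-ps2 had 0.20 and Rpl10 0.50, the opposite sign. Medians over all genes were -0.155 on log2(TPM + 1) and -0.341 on log2(TPM + 0.1). Single-gene values below are not relative to these medians. Among named genes not called, these turned in sign. On log2(TPM + 1) and log2(TPM + 0.1), Bst2 had -0.208 and -0.211, Hmgcs1 -0.250 and -0.264, Ifi27 -0.227 and -0.235, Ifi35 -0.069 and -0.070, Ldha -0.246 and -0.247, Mrps25 -0.069 and -0.071, Pgam1 -0.041 and -0.042 and Tgfb1 -0.442 and -0.449. Ifi27 had -0.083 with the length offset, and by limma-voom Rps12 had 0.024 and Tgfb1 -0.072. Without single libraries the ranges were -1.165 to 2.519 for Arg1, -0.011 to 0.281 for Hmgcs1, -0.076 to 0.303 for Ifi27, -2.46 to 0.166 for Il10, -0.132 to 0.028 for Isg15, -1.527 to 5.112 for Krt19, -0.083 to 0.372 for Ldha, -0.141 to 0.174 for Rps12, -0.167 to 0.201 for Tgfb1 and -0.684 to 0.035 for Xcr1. The cause of these shifts was not tested. The length offset, the sums other than those of Ugt1a and Pgam1, and the counts of libraries above or below on TPM and among protein-coding genes were chosen after seeing the data.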
